A study of Mus musculus with 36 samples.

Results

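SIN3A promoter sites with CHD4 are the places near gene starts in mouse embryonic stem cells (ESCs) where peaks of SIN3A and CHD4 overlapped. They were chosen by their peak calls: a SIN3A peak of the preparation with spike-in chromatin had to overlap a SIN3A peak of the preparation without it by 1 bp, to have its midpoint within 1 kb of a protein-coding transcription start site (TSS), and to overlap an ESC CHD4 site, which is a peak of CHD4 replicate 1 that overlapped a peak of replicate 2. Of 8843 SIN3A sites found in both preparations, 7207 lay at promoters and 454 of these met the rule (6.30%, 95% exact binomial interval 5.75 to 6.89), next to 422 genes. Because the rule used SIN3A and ESC CHD4 peaks, their presence and values at these sites are a description, and only measures outside the rule were tested.

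The study asked where the nucleosome remodeling and deacetylase (NuRD) complex binds and which role its partner ZFP296 has there. Its 36 ChIP-seq samples come from ESCs and from neural progenitor cells (NPCs) derived from them, and peak lists of 9 samples were used. Wild-type R1 ESCs in Serum/LIF +2i gave 2 lists each for MBD3, CHD4 and SIN3A, wild-type NPCs gave 1 list each for MBD3 and CHD4, and ESCs labelled ZFP296-BAC R1 gave 1 list with an antibody against GFP. All peak names of CHD4 replicate 2 mention a Zfp219 BAC (bacterial artificial chromosome) although the labels give wild-type cells, and the methods describe a GFP-ZFP296 construct in another ESC line (KH2). A peak list holds no expression, so the identity of the cells could not be checked against marker genes.

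SIN3A is the scaffold of a corepressor complex that brings the histone deacetylases HDAC1 and HDAC2 to chromatin, often to CpG-rich promoters, and it binds MAD family partners of MAX, which recognise the E-box. NuRD holds the same deacetylases together with CHD4, an ATP-dependent nucleosome remodeler, and MBD3, which links the remodeler to the deacetylase module. CHD4 can also act outside NuRD, so a CHD4 peak is not by itself a NuRD peak. ZFP296 is a zinc finger protein of ESCs that binds NuRD.

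DNA shared by the SIN3A and CHD4 peaks is shown for 8 genes, with exons left out and up to 200 bases a site, because these genes carry the strongest SIN3A or CHD4 peaks or are markers of ESCs. Sequences come from mm9 (NCBIM37) and run 5′ to 3′ along the gene, and capitals mark matches, on either strand, to strings searched below. Hdgf, Lamp1 and Mll1 had some of the highest SIN3A values, and Mapk6, Mkrn2 and Ezh2 some of the highest CHD4 values. The sites of Pou5f1 and Nanog are shown as examples chosen after their values were seen.
Hdgf, chr3:87709899-87710098, plus strand: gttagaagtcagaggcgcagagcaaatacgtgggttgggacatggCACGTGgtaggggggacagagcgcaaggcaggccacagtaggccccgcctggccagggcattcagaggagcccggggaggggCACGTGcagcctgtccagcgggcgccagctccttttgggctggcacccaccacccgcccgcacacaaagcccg
Lamp1, chr8:13159038-13159134, plus strand: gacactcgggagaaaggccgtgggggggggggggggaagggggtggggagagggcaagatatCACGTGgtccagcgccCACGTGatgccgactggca
Mll1, chr9:44689412-44689611, minus strand: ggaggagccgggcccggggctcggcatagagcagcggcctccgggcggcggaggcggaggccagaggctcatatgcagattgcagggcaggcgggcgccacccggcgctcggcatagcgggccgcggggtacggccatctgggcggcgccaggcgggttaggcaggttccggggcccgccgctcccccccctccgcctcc
Mapk6, chr9:75257391-75257590, minus strand: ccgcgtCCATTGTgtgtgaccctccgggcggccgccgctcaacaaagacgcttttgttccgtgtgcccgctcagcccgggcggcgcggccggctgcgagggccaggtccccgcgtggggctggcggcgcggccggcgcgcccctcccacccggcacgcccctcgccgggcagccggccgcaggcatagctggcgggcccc
Mkrn2, chr6:115551710-115551909, plus strand: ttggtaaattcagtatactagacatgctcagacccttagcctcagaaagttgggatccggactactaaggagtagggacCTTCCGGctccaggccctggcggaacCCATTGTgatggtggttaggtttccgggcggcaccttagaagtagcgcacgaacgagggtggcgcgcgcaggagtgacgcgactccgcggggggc
Ezh2, chr6:47544416-47544615, minus strand: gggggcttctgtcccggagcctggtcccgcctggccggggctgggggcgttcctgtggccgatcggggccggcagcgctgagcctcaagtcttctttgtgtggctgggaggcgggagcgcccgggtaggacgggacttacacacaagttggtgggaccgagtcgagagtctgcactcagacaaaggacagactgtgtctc
Pou5f1 upstream site, chr17:35642043-35642242, plus strand: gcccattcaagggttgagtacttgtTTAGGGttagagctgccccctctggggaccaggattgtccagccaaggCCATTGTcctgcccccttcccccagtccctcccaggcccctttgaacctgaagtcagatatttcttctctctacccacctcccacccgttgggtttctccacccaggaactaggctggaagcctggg
Pou5f1 site at the TSS, chr17:35642827-35642974, plus strand: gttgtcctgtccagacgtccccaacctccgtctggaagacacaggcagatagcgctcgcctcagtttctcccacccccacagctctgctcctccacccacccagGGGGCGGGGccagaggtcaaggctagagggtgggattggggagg
Nanog, chr6:122657307-122657506, plus strand: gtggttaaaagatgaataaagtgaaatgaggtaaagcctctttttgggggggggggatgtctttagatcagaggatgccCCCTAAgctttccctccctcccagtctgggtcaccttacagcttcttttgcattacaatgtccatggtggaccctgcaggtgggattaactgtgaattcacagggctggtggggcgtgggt

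The Hdgf and Lamp1 stretches each hold 2 copies of the E-box CACGTG. The Mapk6 and Mkrn2 stretches hold the SOX2 string CCATTGT, and Mkrn2 also holds the ETS string CCGGAAG on its other strand. The upstream site of Pou5f1 holds the SOX2 string and the telomere repeat unit TTAGGG, while its site at the TSS holds the SP/KLF string GGGGCGGGG. The Nanog stretch holds TTAGGG on its other strand. Only exact matches were marked, so a stretch without a marked string may still hold a variant site of that factor. Base composition differed widely among the stretches. The 200 bases of Mapk6 hold 30 CpG dinucleotides, whereas the stretch of Nanog and the upstream one of Pou5f1 hold 1 each. The Ezh2 stretch lies 414 to 613 bp downstream of the TSS in an intron, and the other 8 lie upstream of their TSS.

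SIN3A promoter sites with CHD4 carried each of the 4 other binding profiles more often than SIN3A promoter sites without CHD4. An ESC MBD3 site, found in both MBD3 replicates, was present at 63 of the 454 sites (13.9%, 10.8 to 17.4), against 14 of the 6753 without CHD4 (0.207%) and 1.07% of all SIN3A promoter sites. A ZFP296 peak was present at 66 (14.5%, 11.4 to 18.1), against 136 (2.01%) and 2.8% of all. MBD3 and ZFP296 were thus each called at a minority of the 454 sites. CHD4 of NPCs was the most frequent of the 4, at 166 sites (36.6%, 32.1 to 41.2) against 808 (12.0%) and 13.5% of all. It also had the most peaks, 20234, against 3102 for ZFP296, 2304 for NPC MBD3 and 1508 ESC MBD3 sites. The largest list thus had the highest share and the next largest, ZFP296, the next highest. ESC MBD3, with fewer sites than NPC MBD3 had peaks, nevertheless had the higher share. What part list size has in the shares was not tested. An NPC MBD3 peak was present at 45 (9.91%, 7.32 to 13.0), against 201 (2.98%) and 3.41% of all. By two-sided Fisher's exact tests over sites, the odds ratios were 77.4 for MBD3 (95% interval 42.4 to 151, adjusted p = 5.05e-63), 8.27 for ZFP296 (5.96 to 11.4, adjusted p = 6.01e-31), 4.24 for NPC CHD4 (3.43 to 5.22, adjusted p = 8.71e-38) and 3.59 for NPC MBD3 (2.50 to 5.06, adjusted p = 4.24e-11), with Benjamini-Hochberg adjustment over the 4.

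These intervals and p-values cover counting over sites in the lists at hand and not the spread between experiments, since sites are not replicates and the ZFP296 and NPC lists are 1 library each. The size of the MBD3 odds ratio depended on the lists: it was 16.9 without MBD3 replicate 1, 15.7 without MBD3 replicate 2 and 39.0 without CHD4 replicate 1. For ZFP296 it was 3.68 without CHD4 replicate 1. The paper reports that most ESC MBD3 sites lay on CHD4 peaks. Splitting the SIN3A promoter sites by ESC CHD4 therefore made a high MBD3 odds ratio likely in advance.

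**Figure D1:**
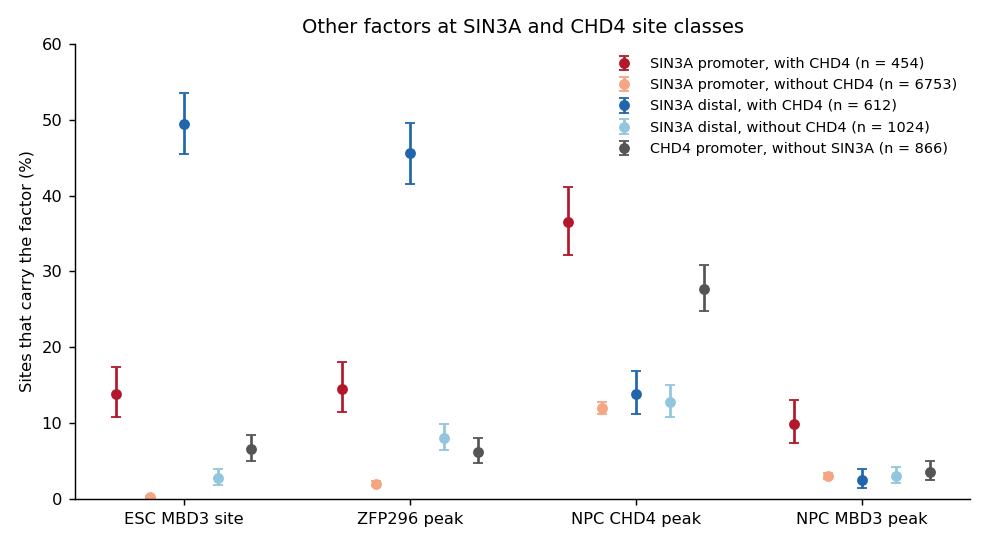
Share of sites (%, y axis) that carry an ESC MBD3 site, a ZFP296 peak, an NPC CHD4 peak or an NPC MBD3 peak (x axis), for 5 classes of site; points are shares and bars 95% exact binomial intervals. SIN3A promoter sites with CHD4 (dark red) lie above those without CHD4 for each of the 4, below distal SIN3A sites with CHD4 for MBD3 and ZFP296 (13.9% against 49.5%, and 14.5% against 45.6%), and above them for NPC CHD4 (36.6% against 13.9%).

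The comparison sites were not alike in their ESC CHD4 peaks. Of the 6753, 5049 had no CHD4 peak in either list, 1535 had a peak of replicate 2 only, 144 had a peak of replicate 1 only and 25 had a peak in each list that did not meet the rule. An ESC MBD3 site was present at 0 of the 5049 (up to 0.0730%) and at 10 of the 1535 (0.651%). NPC CHD4 peaks were present at 377 of the 5049 (7.47%) and at 407 of the 1535 (26.5%, 24.3 to 28.8). The share of NPC CHD4 thus stood at its lowest where ESC CHD4 was not called. It was highest, 36.6%, at the 454 sites, whose CHD4 replicate 1 peak overlapped a replicate 2 peak. It was 11.8% of the 144 and 28% of the 25. ZFP296 peaks were present at 1.54% of the 5049, 3.32% of the 1535, 4.86% of the 144, 0 of the 25 (up to 13.7%) and 14.5% of the 454.

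Set against the 612 distal SIN3A sites with CHD4, which lie over 1 kb from every protein-coding TSS, the promoter sites held less MBD3 and ZFP296 and more NPC binding. CHD4 was present at 37.4% of the 1636 distal SIN3A sites. Of the 612 that carried it, 303 had an MBD3 site (49.5%), 279 a ZFP296 peak (45.6%), 85 an NPC CHD4 peak (13.9%) and 15 an NPC MBD3 peak (2.45%). The odds ratios of promoter over distal sites were 0.165 for MBD3 (0.119 to 0.226, adjusted p = 3.08e-35, Fisher's exact test) and 0.203 for ZFP296 (0.147 to 0.278, adjusted p = 6.22e-28). In the same exact test they were 3.57 for NPC CHD4 (2.63 to 4.88, adjusted p = 1.16e-17) and 4.37 for NPC MBD3 (2.35 to 8.56, adjusted p = 2.65e-07). The median CHD4 replicate 1 value, the −log10 value that the peak caller gave, was 8.13 at promoter and 11.2 at distal sites, and the part of this difference in the MBD3 share was not tested. Without CHD4 replicate 1 the 4 odds ratios were 0.0786, 0.128, 2.13 and 2.42.

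A further comparison held CHD4 at promoters fixed and asked about SIN3A. Of the 8246 ESC CHD4 sites, 451 overlapped the SIN3A promoter sites (5.47%), and 866 lay at promoters with no SIN3A site, although 360 of these 866 had a SIN3A peak in 1 of the lists. MBD3 was present at 64 of the 451 (14.2%) and 57 of the 866 (6.58%), with an odds ratio of 2.35 (1.58 to 3.49, adjusted p = 1.63e-05, Fisher's exact test). ZFP296 was present at 67 (14.9%) and 54 (6.24%), with an odds ratio of 2.62 (1.77 to 3.91, exact test, adjusted p = 2.44e-06). CHD4 promoter sites with SIN3A thus held MBD3 and ZFP296 more often than those without. The same held for NPC MBD3, at 47 (10.4%) and 31 (3.58%), with an odds ratio of 3.13 (1.91 to 5.18, exact test, adjusted p = 3.39e-06). NPC CHD4 was present at 166 (36.8%) and 240 (27.7%), an odds ratio of 1.52 (1.18 to 1.95, exact test, adjusted p = 0.00085), which did not pass with the SIN3A list without spike-in alone (1.19, p = 0.15) or when 50% of the shorter peak had to be shared (1.31, p = 0.0622). For ZFP296 the odds ratio was 1.47 without CHD4 replicate 1 and 5.19 without the SIN3A list with spike-in. Over all 8246 ESC CHD4 sites the shares were 15.7% for MBD3, 15.4% for ZFP296, 13.1% for NPC CHD4 and 1.65% for NPC MBD3. The 451 thus lay near the share of all CHD4 sites for MBD3 and ZFP296, and above it for both NPC profiles.

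The 4 profiles were also set against each other among the 454 sites, in 5 pairs. Of the 454, 61 lay at genes with 2 or more such sites, and neighbours could overlap the same peak. The tests of pairs were not repeated with 1 site per gene, so their p-values may be too small. None of the 4 profiles was present at 199 sites (43.8%), and NPC CHD4 alone was present at 117 (25.8%). ZFP296 alone was found at 36, MBD3 alone at 24 and the pair of MBD3 and ZFP296 without NPC binding at 17. MBD3 was more frequent at sites with ZFP296 (18 of 66, 27.3%) than at those without it (45 of 388, 11.6%), an odds ratio of 2.85 (1.43 to 5.52, adjusted p = 0.00271 over 5 pairs, Fisher's exact test). ZFP296 was less frequent at sites with NPC CHD4 (13 of 166, 7.83%) than at those without (53 of 288, 18.4%), an odds ratio of 0.377 (0.182 to 0.731, exact test, adjusted p = 0.00271). For MBD3 and NPC CHD4 the interval of the odds ratio, 0.717, ran from 0.380 to 1.31 (exact test, adjusted p = 0.324). Sites with NPC MBD3 had ESC MBD3 more often (17 of 45, 37.8%, against 46 of 409, 11.2%), an odds ratio of 4.77 (2.27 to 9.84, exact test, adjusted p = 4.49e-05). NPC MBD3 was more frequent at sites with NPC CHD4 (33 of 166, 19.9%) than at those without (12 of 288, 4.17%), an odds ratio of 5.68 (2.75 to 12.5, exact test, adjusted p = 7.46e-07).

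MBD3 in ESCs together with CHD4 and MBD3 in NPCs was found at 14 of the 454 sites, at 0 of the 6753 SIN3A promoter sites without CHD4 and at 5 of the 612 distal sites with CHD4. The 14 included the promoters of Ezh2, of Ctcf, the insulator protein, and of E2f2, a transcription factor of the cell cycle, the last pair named after their values were seen. The Ctcf site carried values of 11.8 and 58.5 for ESC CHD4, 15.4 and 80.3 for ESC MBD3 (replicates 1 and 2), 57.1 for NPC CHD4 and 128 for NPC MBD3. The E2f2 site carried 12.6 and 10.01 for ESC CHD4, 16.2 and 19.6 for ESC MBD3, 9.88 for NPC CHD4 and 19.9 for NPC MBD3. A peak in all 6 CHD4 and MBD3 lists at both genes largely restates how the 14 sites were picked.

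Genes that mark pluripotent cells accounted for 9 of the 454 sites. All 10 listed ESC markers had a SIN3A promoter site, and 6 of them had one with CHD4: Pou5f1, Nanog, Esrrb, Tbx3, Sall4 and Zfp42. Over 22372 protein-coding genes, 28.6% had a SIN3A promoter site and 2.07% one with CHD4. Of the 7 NPC markers found in the annotation, 2 had a SIN3A promoter site and 0 had one with CHD4. Of the 9 sites, 6 had an MBD3 peak in at least 1 replicate, as had 36.8% of the 454 and 5.80% of all SIN3A promoter sites, 2 had an MBD3 site, 3 had a ZFP296 peak and 0 had a peak of CHD4 or MBD3 in NPCs. Over all 454 the shares were 13.9% for an MBD3 site, 14.5% for ZFP296, 36.6% for NPC CHD4 and 9.91% for NPC MBD3. No test was made on the gene lists, which were chosen with results of these data known.

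Pou5f1, which encodes the transcription factor OCT4, had a site centred 883 bp upstream of its TSS and another 81 bp upstream. The upstream one had SIN3A values of 20.7 with and 16.1 without spike-in, CHD4 values of 20.1 and 31.9, MBD3 values of 12.9 and 9.41 and a ZFP296 value of 22.6. The one at the TSS had SIN3A values of 6.82 and 18.9, CHD4 values of 9.40 and 12.9, MBD3 values of 8.03 and 14.6 and a ZFP296 value of 11.3. Both sites had a peak in all 7 ESC lists and in neither NPC list. Nanog, a homeobox factor of naive pluripotency, had SIN3A values of 9.55 and 24.2 at a site 17 bp upstream of its TSS, CHD4 values of 22.3 and 34.6, an MBD3 value of 11.6 in replicate 1 only and no ZFP296 peak. Esrrb, an orphan nuclear receptor of the same network, had its site 976 bp downstream, with SIN3A values of 11.0 and 29.4, a CHD4 value of 9.39 in replicate 1, an MBD3 value of 7.03 in replicate 1 and a ZFP296 value of 12.6. The Esrrb peak of CHD4 overlapped none of replicate 2 within the SIN3A peak itself, as at 20 of the 454 sites, so its CHD4 site met replicate 2 outside it.

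Sall4, a zinc finger protein that binds NuRD, had 3 sites, centred 363 bp upstream and 44 and 660 bp downstream of the nearest TSS. The TSS nearest to the first differs from that of the others, so these distances do not give their order along the gene. Their CHD4 replicate 1 values were 4.72, 7.40 and 9.27. MBD3 replicate 2 had a peak at the sites listed at 363 bp upstream and 660 bp downstream, with values of 7.94 and 13.3. Sall4 carried no ZFP296 and no NPC peak at these sites. Tbx3, a T-box factor, had CHD4 values of 13.8 and 14.4 at a site 604 bp upstream, and Zfp42, the marker also known as Rex1, had 9.63 and 13.0 at a site 20 bp upstream. Neither had an MBD3 or a ZFP296 peak there.

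**Figure D2:**
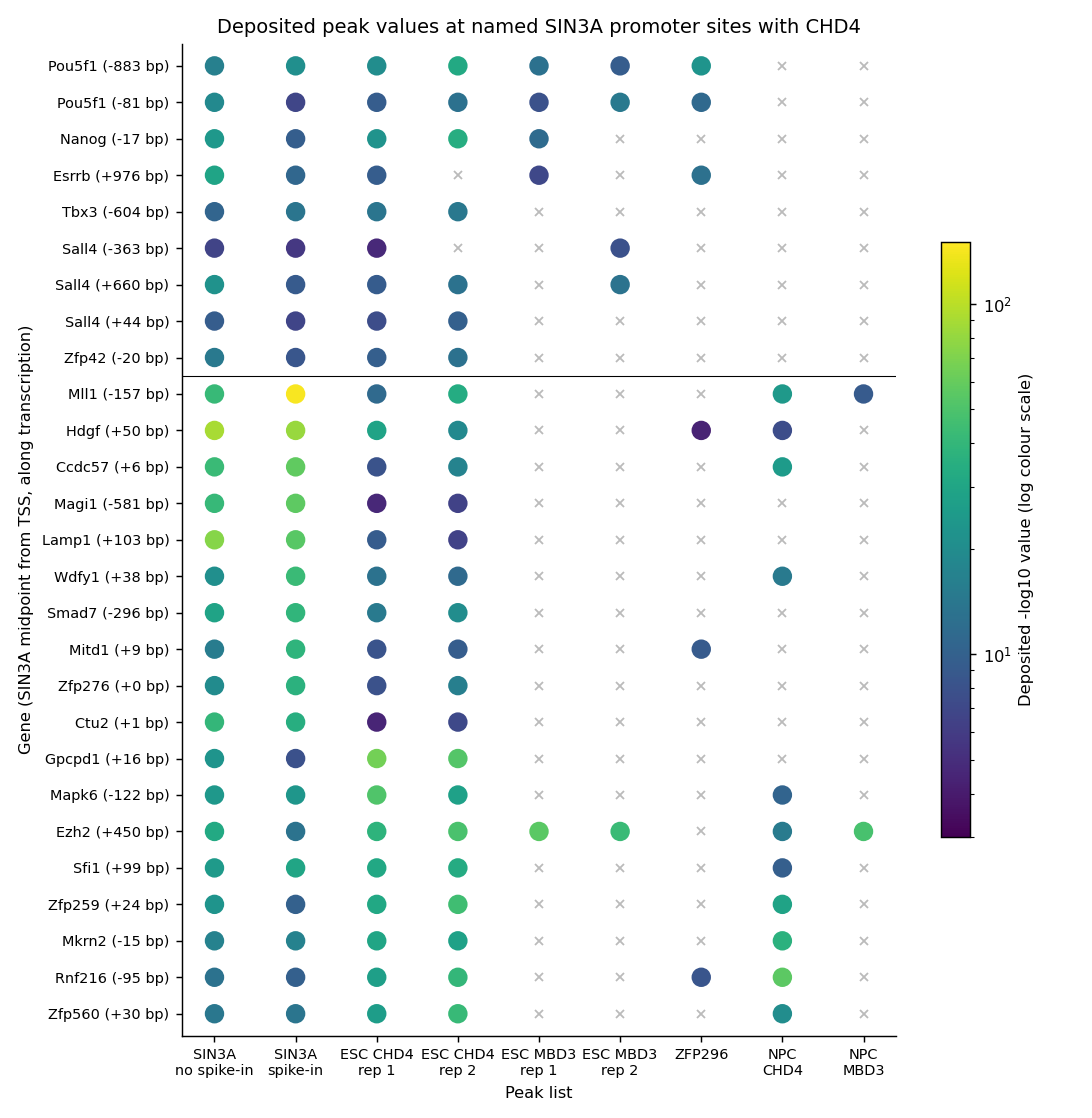
Deposited −log10 peak value (colour, log scale) in each of the 9 peak lists (x axis) at named SIN3A promoter sites with CHD4 (y axis, gene and distance in bp of the SIN3A midpoint from the TSS); grey crosses stand for no overlapping peak. The 9 sites of ESC markers above the line have no NPC peak, whereas the sites with high CHD4 values from Mapk6 to Zfp560, and that of Hdgf, have an NPC CHD4 peak. Gpcpd1, with the highest CHD4 replicate 1 value (65.4), has no NPC peak. Values come from separate peak calls and are not levels on 1 scale.

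The 10 sites with the highest SIN3A value in the spike-in list were at Mll1, Hdgf, Ccdc57, Magi1, Lamp1, Wdfy1, Smad7, Mitd1, Zfp276 and Ctu2. Mll1, now called Kmt2a, encodes a histone H3 lysine 4 methyltransferase and had a SIN3A value of 145 with and 41.6 without spike-in, CHD4 values of 11.4 and 33.1, an NPC CHD4 value of 24.6 and an NPC MBD3 value of 9.12. Hdgf, a heparin-binding growth factor, had SIN3A values of 82.4 and 90.3, CHD4 values of 28.9 and 18.8, a ZFP296 value of 4.34 and an NPC CHD4 value of 7.40. Smad7, an inhibitor of TGF-beta signalling, had SIN3A values of 38.5 and 28.8 and CHD4 values of 14.8 and 20.2. Of these 10 sites, 0 had an ESC MBD3 site, 2 had ZFP296, 4 had NPC CHD4 and 1 had NPC MBD3. Over all 454 sites the shares were 13.9%, 14.5%, 36.6% and 9.91%, and these counts do not set the 10 apart. In the 10, SIN3A values ran from 34.7 to 145, whereas the CHD4 replicate 1 values ran from 4.52 to 28.9. Lamp1, a glycoprotein of the lysosomal membrane, had SIN3A values of 54.6 and 73.2 and CHD4 values of 9.16 and 6.44.

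The 10 sites with the highest CHD4 replicate 1 value included those at Gpcpd1, Mapk6, Ezh2, Sfi1, Zfp259, Mkrn2, Hdgf, Rnf216 and Zfp560, so that Hdgf was on both lists. Gpcpd1, a glycerophosphocholine phosphodiesterase, had CHD4 values of 65.4 and 52.9, SIN3A values of 7.86 and 22.8 and no peak of the other 4 profiles. Ezh2, the H3K27 methyltransferase of Polycomb complex PRC2, had CHD4 values of 37.8 and 48.8, MBD3 values of 55.4 and 42.7, an NPC CHD4 value of 15.1 and an NPC MBD3 value of 48.4. Across the 10, an NPC CHD4 peak was present at 9, MBD3 at 2, ZFP296 at 2 and NPC MBD3 at 1. Over all 454 sites the shares were 36.6%, 13.9%, 14.5% and 9.91%, and the counts in the 10 were not tested. Mapk6, an atypical MAP kinase, had CHD4 values of 50.9 and 27.9 and an NPC CHD4 value of 10.4. Mkrn2 and Rnf216, which encode ubiquitin ligases, had NPC CHD4 values of 36.5 and 56.2, each above its ESC replicate 1 value of 30.1 and 27.0, although values of separate calls are not levels on 1 scale.

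Of 28 listed genes of the cell cycle and DNA replication, 26 had a SIN3A promoter site and 0 had one with CHD4. That list is not complete: E2f2, named above, had a site with CHD4 but is not on it. The count with CHD4 was also 0 for 25 splicing factors (15 with SIN3A), 27 proteasome subunits (13) and 11 members of the MYC and MAX network (8). It was 1 of 51 cytosolic ribosomal proteins (1.96%, 21 with SIN3A, Rps13), 1 of 30 translation factors and tRNA synthetases (3.33%, 21, Mars), 1 of 20 genes of ribosome biogenesis (5%, 13, Polr1b) and 2 of 29 of the respiratory chain (6.90%, 13, Ndufs3 and Cox4i1). The share over all genes was 2.07%, or 7.23% of genes with a SIN3A promoter site, so that these lists lay on both sides of it, and counts this small were not tested. The Ndufs3 site lies at a shared promoter, where the nearest TSS belongs to another gene.

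Lists of chromatin regulators held 1 or 2 such genes each. Their shares were 5.56% to 25% of the genes and 8.33% to 40% of those with a SIN3A promoter site. For all genes these were 2.07% and 7.23%, so the lowest, 8.33%, was close to the share of all genes. Counts of 1 or 2 genes do not set these lists apart and were not tested. NuRD had 1 of 15 (Gatad2a, a GATA zinc finger subunit), the SIN3 complex 1 of 18 (Ing1, a reader of H3K4me3), CoREST 2 of 8 (the demethylase Kdm1a and Phf21a) and the zinc finger proteins that bind NuRD 2 of 13 (Sall4 and Zfp219). Polycomb had 2 of 19 (Ezh2 and Aebp2), Trithorax and BAF 1 of 15 (Mll1) and the DNA methylation list 1 of 11 (the methyltransferase Dnmt3a). Apart from these, signalling feedback and immediate early genes had 1 of 21 (4.76%, Smad7), or 8.33% of those with a SIN3A promoter site. Kdm1a had CHD4 values of 8.35 and 13.6 and an NPC CHD4 value of 16.5, and Dnmt3a had 9.63 and 6.99 with an NPC CHD4 value of 10.5. Gatad2a and Ing1 had CHD4 values of 9.16 and 9.19 in replicate 1 and no NPC peak. Zfp219, whose BAC is named in the peak names of CHD4 replicate 2, had CHD4 values of 8.50 in replicate 1 and 58.6 in replicate 2. The ratio of both values, 6.90, was the second highest of the 434 sites with values of both replicates (median 1.41), and what part a BAC has in it was not tested.

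**Figure D3:**
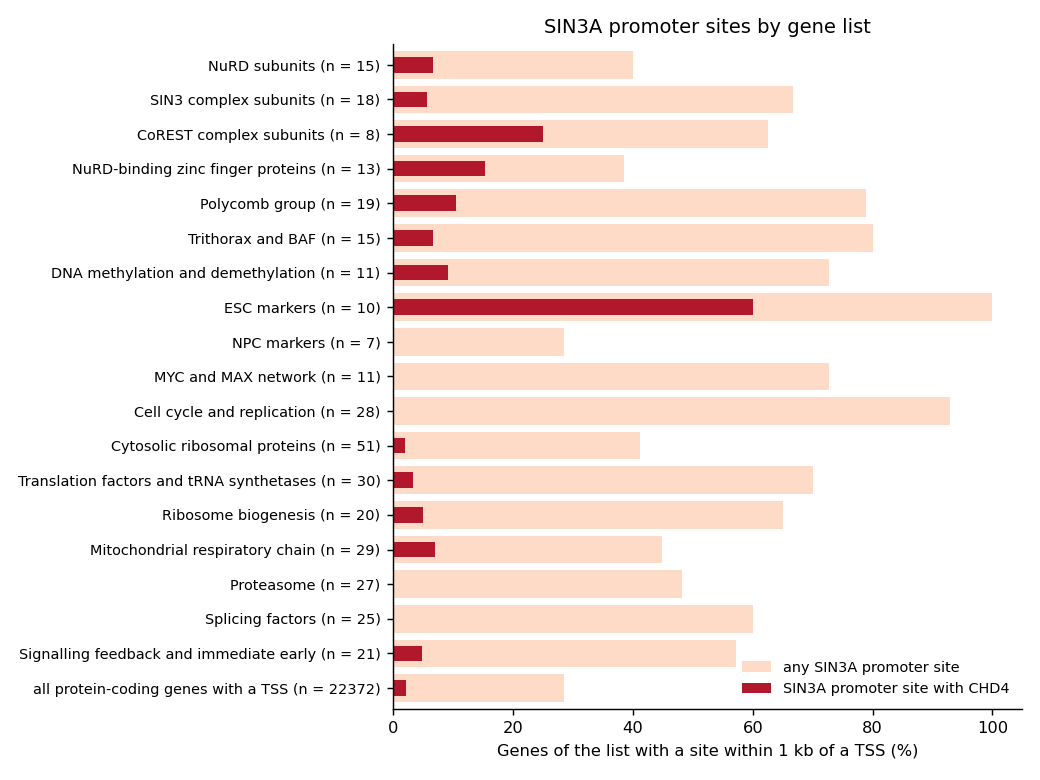
Percent of the genes of each list (y axis, with the number matched to the annotation) that have any SIN3A promoter site (light bars) or one with CHD4 (dark bars). ESC markers have a SIN3A promoter site at 10 of 10 genes and one with CHD4 at 6, while the cell cycle list has 26 of 28 and 0, and all genes 28.6% and 2.07%.

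The sites with CHD4 lay further upstream than those without. Counted from the nearest TSS along the direction of transcription, their SIN3A midpoints had a median of 9.5 bp (quartiles -114 and 128 bp), against a median of 60 bp (-32 and 206 bp) at the 6753 sites, where negative values lie upstream. Positions over 250 bp upstream held 61 of the 454 (13.4%, 10.4 to 16.9) and 470 of the 6753 (6.96%, 6.36 to 7.59). Positions 51 to 250 bp downstream held 111 (24.4%, 20.6 to 28.7) and 2157 (31.9%, 30.8 to 33.1). Read the other way, CHD4 was present at 11.5% of SIN3A promoter sites over 250 bp upstream and at 4.24% of those over 250 bp downstream. These positions are a description, since the distance to the TSS entered the rule.

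Within the overlapping pairs, the CHD4 midpoint lay upstream of the SIN3A midpoint more often than downstream of it. It lay downstream at 190 and upstream at 264 sites (41.9% downstream), with a median shift of -29 bp, where negative is upstream. The midpoints of CHD4 replicate 2 gave 40.3% downstream. Among the 144 sites whose SIN3A peak was 222 to 350 bp wide, the share was 45.1%. Both peaks entered the rule, so these shares are a description. The sites were less often at divergent promoters, where protein-coding TSSs on both strands lie within 1 kb: 33 of 454 (7.27%) against 917 of 6753 (13.6%), an odds ratio of 0.499 (0.337 to 0.717, p = 5.45e-05, Fisher's exact test).

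**Figure D4:**
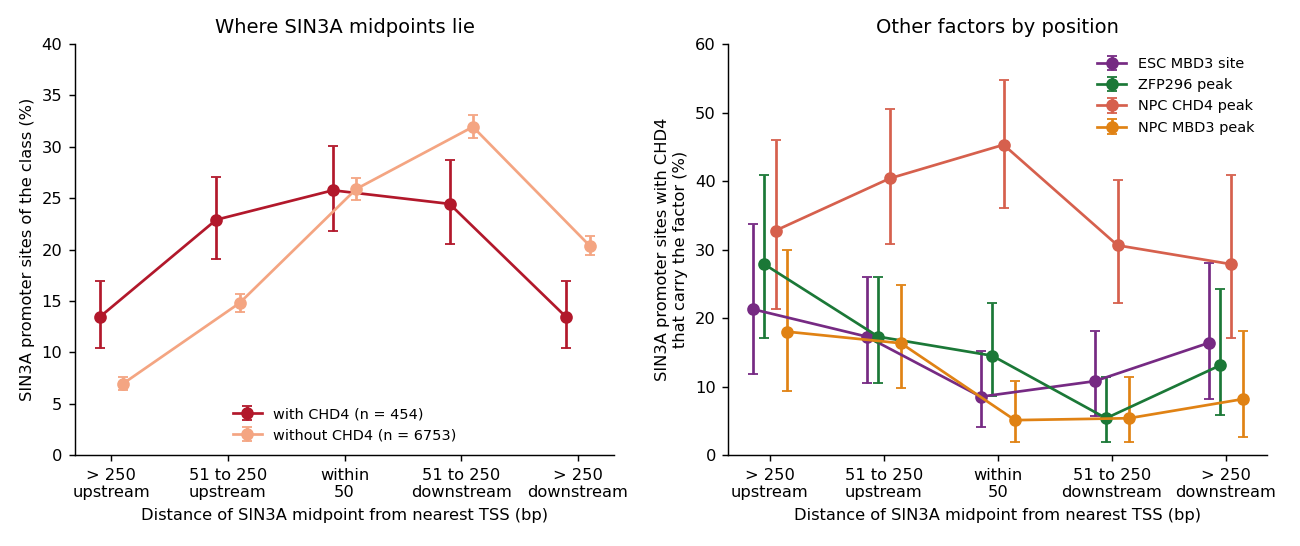
Left, percent of SIN3A promoter sites (y axis) with and without CHD4 in 5 ranges of distance in bp from the nearest TSS (x axis); right, percent of those with CHD4 that carry each other profile in the same ranges. Points are shares and bars 95% exact binomial intervals; sites with CHD4 are shifted upstream, NPC CHD4 is highest within 50 bp of the TSS (45.3%), and ZFP296 runs from 27.9% far upstream to 5.41% at 51 to 250 bp downstream.

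The shares of the other profiles along the promoter were described without a test. Among the 454 sites, NPC CHD4 was present at 53 of 117 within 50 bp of the TSS (45.3%, 36.1 to 54.8) and at 17 of 61 over 250 bp downstream (27.9%, 17.1 to 40.8). MBD3 was present at 10 of the 117 (8.55%, 4.17 to 15.2) and at 13 of 61 over 250 bp upstream (21.3%, 11.9 to 33.7). ZFP296 was present at 17 of these 61 (27.9%, 17.1 to 40.8) and at 6 of 111 at 51 to 250 bp downstream (5.41%, 2.01 to 11.4), and at 8 of 61 over 250 bp downstream (13.1%, 5.84 to 24.2). The intervals of NPC CHD4 and of MBD3 overlap between these ranges, and so do those of ZFP296 far upstream and far downstream.

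SIN3A peaks of the 454 sites were slightly stronger and wider than those of the 6753. The median SIN3A value was 9.72 against 9.03 with spike-in and 17.9 against 15.1 without, and the median width 301 against 280 bp. In the 200 bp around the midpoint the median G+C content was 70.5% against 70%, and the ratio of observed to expected CpG 0.825 against 0.890. Both classes were rich in CpG: over all protein-coding gene starts the medians were 59% and 0.611, and at distal SIN3A sites with CHD4 53.5% and 0.256. Sites with ZFP296 stood apart within the 454, with medians of 61% and 0.518 against 71.8% and 0.862 without it. Sites with MBD3 had a median CHD4 replicate 1 value of 11.9 against 7.70 without MBD3. These values were not tested, and CHD4 promoter sites without SIN3A had medians of 58.5% G+C and 0.540, against 68.5% and 0.776 at the CHD4 sites on the 454.

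The presence of each of 14 string sets within 200 bp around the SIN3A midpoint, read on either strand, was compared by Fisher's exact test, and 0 passed an adjusted p of 0.05 while 3 had an unadjusted p below it. The POU5F1 octamer ATGCAAAT was present at 6 of 454 (1.32%) and 22 of 6753 (0.326%), with an odds ratio of 4.10 (1.35 to 10.5, exact test, adjusted p = 0.0971) and a share of 0.948% over all gene starts. It passed under 6 of 15 alternatives, with odds ratios of 3.39 to 5.62 in those 6. Among them were TSSs within 2 kb (exact test, adjusted p = 0.00666) and the exclusion of chromosomes 6 and 8 (exact test, adjusted p = 0.025). In the alternatives not passed the odds ratio ran from 0 to 4.45. The 0 came from sites of 66 to 73% G+C, with 0 of 138 against 5 of 2427. The SOX2 string was present at 2.20% and 1.02% (exact test, adjusted p = 0.188) and 1.89% of gene starts. The SP/KLF string was present at 15.4% and 12.2% (exact test, adjusted p = 0.188) and 11.8% of gene starts. The 6 sites with the octamer include those of Esrrb and of Mars, the methionyl-tRNA synthetase. Distal SIN3A sites with CHD4 held the octamer at 3.77% and the SOX2 string at 6.56%. Only exact matches were counted, so variant sites of these factors were missed in every class.

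The remaining 11 sets had adjusted p-values of 0.188 or more. The E-box CACGTG was present at 6.39% and 7.18% of sites with and without CHD4 (5.55% of gene starts), and CCGGAAG, bound by ETS factors, at 11.0% and 12.3% (9.38%). The CCAAT box of NFY, as CCAATCA or CCAATCG or CCAATGA or CCAATGG, was present at 5.51% and 7.94% (14.0%). It passed under 5 of the 15 alternatives, with odds ratios of 0.479 to 0.670 in those 5. At sites of 66 to 73% G+C it did not pass, with an odds ratio of 1.16. TTAGGG was present at 6.17% and 4.15% (5.48%) and the AP-1 strings TGACTCA or TGAGTCA at 1.32% in either class (2.64%). The TATA string TATAAA was present at 1.32% and 1.16% (8.19%), AAGATGGCG of YY1 at 1.32% and 2.13% (1.94%) and GCGCATGCG of NRF1 at 0.881% and 0.992% (1.69%). TGACGTCA, the cyclic AMP response element, was present at 0.661% and 1.79% (1.93%), CTCGCGAG of ZBTB33 at 1.54% and 0.977% (0.921%) and CTACAATTC of ZNF143 and THAP11 at 0 of 454 (up to 0.809%) and 0.193% (0.282%).

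Chromosomes 6 and 8 held 101 of the 454 sites (22.2%) and 13.6% of all SIN3A promoter sites. CHD4 was present at 9.86% of SIN3A promoter sites on chromosome 6 (7.23 to 13.1) and 10.7% on chromosome 8 (8.23 to 13.6), against 4.30% to 7.10% on the other autosomes and 0 of 19 on X. Peaks of CHD4 replicate 1 alone covered 15.1% and 13.5% of SIN3A promoter sites on chromosomes 6 and 8 and at most 9.88% on another. For replicate 2 the shares were 28.2% and 37.8%, with at most 31.2% on another, so that chromosome 8 but not 6 stood highest. Without these chromosomes the odds ratios against sites without CHD4 were 88.0 for MBD3, 9.41 for ZFP296, 4.26 for NPC CHD4 and 3.49 for NPC MBD3.

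At the edges of the rule, the sites of Stmn2 and Vat1 lay 987 and 981 bp from their TSS, and those of Tlx2 and Prdm14 fell outside at 1008 and 1029 bp. The sites of Midn and Tdgf1 shared 1 bp with a CHD4 site, and those of Mnt and Ddn directly adjoined a CHD4 site without sharing a base. A shared stretch under 50 bp was found at 39 of the 454, and 84 SIN3A promoter sites lay within 100 bp of a CHD4 site that they did not overlap.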

How the data were processed

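Peaks were called by the authors per sample with MACS (version 2.0 in the submitters' processing notes, which also name SAMtools) with the input of the matching line as control, after mapping to mm9 with BWA and removal of duplicates. Replicates were called apart. The deposited −log10 value of the authors' caller, for which p or q is not stated, served only to rank or describe peaks within a list. Peak names give a threshold of 0.0001 for SIN3A without spike-in and 0.001 for the other lists, and those of 7 lists mention reads scaled to a common number. The lists used give no read counts, so the depth is unknown, and SIN3A preparation and spike-in cannot be told apart.

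Overlaps of 1 bp or more were counted in Python 3.11.15 with numpy 2.4.6, scipy 1.17.1, pyfaidx 0.9.0.4 and samtools 1.23.1, and figures drawn with matplotlib 3.10.9. TSSs were all starts of protein-coding transcripts of GENCODE vM1. Coordinates are 1-based. Groups came from sample titles, and 27 samples were not analysed here. Shares carry 95% exact binomial intervals. Classes were compared by two-sided Fisher's exact tests with Benjamini-Hochberg adjustment, and the overlap and test code was tested on simulated data. Observed over expected CpG is the CpG count times length over the product of C and G counts.

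The sites, the 18 gene lists and the tests were chosen with earlier results of these data known. Named were the 10 sites with the highest SIN3A value, the 10 with the highest CHD4 replicate 1 value, sites at listed genes, sites with MBD3, ZFP296 and NPC CHD4 together, and those next to a threshold; some sites so chosen are not reported here. Sequences, with exons excluded, were shown for sites of the first 2 groups. Those of Pou5f1 and Nanog, from the listed genes, were added after their values were seen. Alternatives left out each list and changed the TSS window, overlap, threshold, width, G+C content, sites per gene and string window.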

Additional observations from a re-analysis of the deposited data

How the results depend on the processing

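The odds ratios of MBD3, ZFP296, NPC CHD4 and NPC MBD3 against SIN3A promoter sites without CHD4, those against distal sites and that of divergent promoters kept their direction and passed under every alternative run. Against the sites without CHD4 they ran from 15.7 to 166 for MBD3, 3.68 to 10.8 for ZFP296, 3.25 to 7.14 for NPC CHD4 and 3.08 to 6.49 for NPC MBD3. The comparison sets, the exclusion of chromosomes 6 and 8, 1 start per gene and comparison sites without any CHD4 peak were added after seeing the data; MBD3 has no odds ratio in the last, with 0 of 5049. The number of sites, 454, was 144 at SIN3A widths of 222 to 350 bp and ran from 517 to 1994 when a SIN3A or CHD4 list was left out. The share of CHD4 midpoints downstream was 45.1% at those widths. For CHD4 promoter sites with against without SIN3A, NPC CHD4 gave an odds ratio of 1.31 (exact p = 0.0622) when 50% of the shorter peak had to be shared, and ran from 1.19 to 1.92 as CHD4 or SIN3A lists were left out. The count of strings passing, 0, was 1 with TSSs within 2 kb, 1 without chromosomes 6 and 8, 1 against sites without any CHD4 peak, 3 with 50% of the shorter peak shared, 3 with 1 start per gene and 4 in the central 500 bp; leaving out lists gave 0 to 4. The octamer passed in 6 of 15 alternatives and NFY in 5; SP/KLF and SOX2 passed in 2 each, and YY1, CRE, the E-box, TATA, AP-1 and TTAGGG in 1 each. The cause was not tested. No paired analysis was possible because the results are counts of overlapping peaks, with no fit over samples.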
